A study of Mus musculus with 2 samples.

Results

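The 10 genes described here are those for the glucose transporters Slc2a1 and Slc2a3 and for the glycolysis enzymes Hk1, Aldoa, Tpi1, Gapdh, Pgk1, Eno1, Pkm and Ldha. They were chosen by name, all 10 were found among the 12798 genes of the count table, and all 10 passed the filter on low counts in the comparison over all cells. The cells were colonic lamina propria CD8 T cells from a T cell transfer model of colitis, in which Rag1 KO hosts, which make no T or B cells of their own, received wildtype naive CD4 T cells together with splenic CD8 T cells. Cells labelled Crep were read as those of Bcl6fl/flCd8aCre donors and cells labelled Cren as those of Bcl6fl/fl donors, a reading that the sources used here do not spell out. Both groups thus carry a Bcl6 allele that Cre recombinase can cut, and in the first genotype Cre is made under Cd8a control. All hosts received the same kind of CD4 T cells, mice were 8 to 12 weeks old at transfer, and cells were taken 6 to 10 weeks after it. Droplet 5′ single-cell RNA sequencing gave 4157 Crep cells and 4405 Cren cells, each group in 4 hashtags (antibody barcodes that mark a pool of cells), all in 1 library. Whether the hashtags stand for separate mice is not given in the sources used here, so errors and p-values measure the spread between hashtags.

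Glycolysis turns glucose into pyruvate in the cytosol and yields ATP, NADH and carbon for biosynthesis. Glucose enters through the SLC2A transporters and is trapped by hexokinase, aldolase splits the phosphorylated sugar, triosephosphate isomerase interconverts the products, and GAPDH, PGK1, enolase and pyruvate kinase carry them to pyruvate, which lactate dehydrogenase A reduces to lactate. T cells that have been activated through their antigen receptor raise this pathway, under control of MYC, mTOR and HIF-1, and resting memory T cells rely more on oxidative phosphorylation.

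Because HIF-1 and MYC bind the letters ACGTG and CACGTG in the promoters of several of these genes, the 250 bases upstream of the RefSeq transcript starts (GRCm38.p6) are shown for the 3 genes with an upstream window holding these letters that illustrate the range of copies, with ACGTG on either strand in capitals, which includes each CACGTG.
Ldha, chr7:46845554-46845803, plus strand: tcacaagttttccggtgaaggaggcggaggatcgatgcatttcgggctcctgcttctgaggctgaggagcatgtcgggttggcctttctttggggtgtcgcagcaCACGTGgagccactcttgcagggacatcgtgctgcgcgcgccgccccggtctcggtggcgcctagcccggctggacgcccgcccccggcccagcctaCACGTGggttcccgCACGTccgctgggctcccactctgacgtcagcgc
Pgk1, chrX:106186850-106187099, plus strand: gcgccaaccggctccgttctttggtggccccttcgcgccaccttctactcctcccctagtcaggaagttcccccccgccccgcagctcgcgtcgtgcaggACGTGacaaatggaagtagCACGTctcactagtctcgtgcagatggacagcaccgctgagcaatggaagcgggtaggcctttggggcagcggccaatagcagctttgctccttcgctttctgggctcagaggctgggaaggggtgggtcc
Slc2a1, chr4:119108495-119108744, plus strand: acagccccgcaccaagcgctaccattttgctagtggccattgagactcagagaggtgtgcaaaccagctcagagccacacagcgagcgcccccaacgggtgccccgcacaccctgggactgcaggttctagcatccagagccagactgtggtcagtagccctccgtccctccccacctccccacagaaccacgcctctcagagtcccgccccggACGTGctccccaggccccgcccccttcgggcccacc
Counted on both strands, so that a CACGTG holds ACGTG in each direction, the Ldha window shown has 5 matches of ACGTG and 2 of CACGTG, the Pgk1 window 2 matches of ACGTG, and the Slc2a1 window 1. The other Ldha window (46846832 to 46847081) has 0 of both. RefSeq windows were matched for 9 of the 10 genes. ACGTG lies in at least 1 window of 5 of these 9 (Slc2a1, Aldoa, Pgk1, Pkm and Ldha), against 18.5% of the 27025 genes with a window, and CACGTG in 1 of Ldha alone, against 6.86% of genes. By window, ACGTG lies in 6 of the 16 windows of these 9 genes, against 16.6% of all 32817 windows. A match describes letters and no binding was measured in these cells. On the mm10 genome, Slc2a3 (122727809 to 122802363), Tpi1 (124810586 to 124814158) and Gapdh (125161852 to 125166467) lie near one another on chromosome 6. Ldha (46842274 to 46855627) and Aldoa (126795234 to 126800994) lie on chromosome 7, Slc2a1 (119108745 to 119137330) and Eno1 (150236708 to 150248879) on chromosome 4, and Hk1 (62268855 to 62379920) on chromosome 10. Pkm (59656576 to 59679372) lies on chromosome 9 and Pgk1 (106187100 to 106203699) on chromosome X.

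Depth was similar between the groups, at 2635241 to 3476216 UMIs per hashtag in Crep and 2640530 to 4201265 in Cren, with a median of 2764.5 UMIs per cell. Bcl6, the floxed gene, was higher in the cells labelled Crep, at 29.3 ± 3.49 CPM against 17.5 ± 2.13 CPM in Cren (n = 4 hashtags each, SD). CPM here is the UMI count scaled to equal totals of all genes. The log2 fold change was 0.75, with an SE of 0.14 and an edgeR adjusted p = 0.0293. The 5′ counts are per gene, hold no exon, and do not show whether the floxed part was deleted, so every direction below is between groups as labelled. The hashtag Crep 4 had 63.1% of its cells in coarse cluster 4 of the authors, where the other 7 hashtags had 0.0905% to 12.7%. Markers of CD8 T cells summed to 6566 to 7764 CPM in Crep and 6257 to 6959 CPM in Cren. Those of myeloid cells, which also use glycolysis, summed to 92.6 to 135 CPM in Crep and 88.9 to 107 CPM in Cren over the 8 of 9 markers in the table. The 3 of 8 epithelial and stromal markers in the table summed to 8.05 to 15.5 CPM in Crep and 15.8 to 21.6 CPM in Cren, with no overlap. Cd4, which marks the co-transferred CD4 T cells, averaged 6.81 ± 1.44 CPM in Crep and 0.276 ± 0.325 CPM in Cren, and the 3 CD4 T cell markers together 7.97 to 15.8 CPM in Crep and 3.41 to 10.7 CPM in Cren. Cd4 passed the test described below (log2 fold change 4.36, edgeR adjusted p = 0.000515). Cd40lg, the other CD4 T cell marker tested, averaged 4.14 ± 2.10 CPM in Crep and 3.89 ± 1.76 CPM in Cren. Its log2 fold change was 0.08 (edgeR adjusted p = 0.970). Whether the Cd4 UMIs came from CD4 T cells or from the CD8 T cells was not tested. For B and plasma cells 1 of 6 markers was in the table, and for erythroid and mast cells 1 of 4. The median mitochondrial share of UMIs was 0.636% ± 0.0149 in Crep and 0.739% ± 0.0557 in Cren (n = 4 hashtags each, SD). The part of these differences in the results below was not tested.

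The 10 genes together took 146154 UMIs, or 0.571% of all UMIs, and Gapdh alone gave 54.7% of them. Over all cells their summed level did not separate the groups: it was 5934, 5928, 5257 and 5399 CPM in the Crep hashtags and 5881, 5824, 5819 and 5432 CPM in the Cren hashtags, with means of 5629 ± 353 CPM in Crep and 5739 ± 207 CPM in Cren (n = 4 each, SD). The Crep range contains the whole Cren range. Summed UMIs per hashtag were tested for Crep minus Cren in edgeR (quasi-likelihood test) across 9653 genes with Benjamini-Hochberg adjustment at 0.05. None of the 10 genes passed, where 0.611% of all genes passed (59 genes, 33 higher and 26 lower in Crep). DESeq2 and limma-voom passed 0 of the 10 as well. At an unadjusted p under 0.05 there were 3 of the 10 (Slc2a3, Hk1 and Eno1), against 1076 of the 9653 genes. Of the 10 fold changes 5 were positive and 5 negative, with a median log2 fold change of 0.04 against -0.00059 over all genes tested.

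Among the transporters and the first enzyme, Hk1, the hexokinase that commits glucose to the cell, had 46.3, 38.3, 48.6 and 45.5 CPM in the Crep hashtags, against 37.8, 34.5, 35.7 and 31.4 CPM in the Cren hashtags. The lowest Crep hashtag exceeded the highest Cren hashtag, and groups were likewise apart, in 1 direction or the other, for 6.68% of genes tested. The log2 fold change of Hk1 was 0.35 (SE 0.11, 95% interval 0.13 to 0.58, edgeR adjusted p = 0.178). Slc2a3, which encodes the high-affinity transporter GLUT3, had 71.8, 60.4, 66.6 and 68.7 CPM in the Crep hashtags, against 47.8, 59.0, 65.1 and 37.1 CPM in the Cren hashtags. The groups overlapped at the second Crep hashtag, and the Cren hashtags spread more widely. Its log2 fold change was 0.35 (SE 0.14, interval 0.06 to 0.65, edgeR adjusted p = 0.334), and it was 0.23 without the hashtag Cren 4. Slc2a1, which encodes GLUT1, had 29.4, 16.7, 31.7 and 33.4 CPM in the Crep hashtags, against 26.9, 27.6, 25.7 and 36.0 CPM in the Cren hashtags. The second Crep hashtag was low, and its log2 fold change was -0.06 (SE 0.19, interval -0.47 to 0.35, edgeR adjusted p = 0.947).

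Among the enzymes below hexokinase, Eno1, which makes phosphoenolpyruvate, had 405, 387, 350 and 419 CPM in the Crep hashtags, against 343, 317, 370 and 285 CPM in the Cren hashtags. All Crep hashtags but the third exceeded every Cren hashtag, and the log2 fold change was 0.25 (SE 0.09, interval 0.06 to 0.44, edgeR adjusted p = 0.275). Gapdh, which makes the NADH of the pathway, had 3183, 3182, 2756 and 2752 CPM in the Crep hashtags, against 3304, 3300.1, 3229.9 and 3136 CPM in the Cren hashtags. The last pair of Crep hashtags lay below all Cren hashtags and the other two between them, and the log2 fold change was -0.12 (SE 0.08, interval -0.29 to 0.05, edgeR adjusted p = 0.635). Ldha, which returns NADH to NAD as lactate is made, had 719, 696, 651 and 645 CPM in the Crep hashtags, against 648, 609.8, 666 and 546 CPM in the Cren hashtags. These groups overlapped, with a log2 fold change of 0.14 (SE 0.08, interval -0.03 to 0.31, edgeR adjusted p = 0.566).

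The other enzymes overlapped between the groups as well. Aldoa, the aldolase, averaged 769 ± 53.4 CPM in Crep and 722 ± 48.6 CPM in Cren (n = 4 each, SD; log2 fold change 0.10, SE 0.08). Tpi1, the triosephosphate isomerase, averaged 57.8 ± 11.0 CPM in Crep and 63.5 ± 4.56 CPM in Cren (log2 fold change -0.13, SE 0.12). Pgk1, which makes the first ATP of the pathway, averaged 217 ± 19.9 CPM in Crep and 221 ± 11.0 CPM in Cren (log2 fold change -0.02, SE 0.08). Pkm, whose M1 and M2 splice forms the counts per gene cannot tell apart, averaged 409.9 ± 21.5 CPM in Crep and 428 ± 15.1 CPM in Cren (log2 fold change -0.06, SE 0.07). The edgeR adjusted p of these genes was 0.725, 0.748, 0.961 and 0.835. RefSeq names 7 pseudogenes of Tpi1, 3 each of Gapdh, Pgk1 and Ldha, and 2 of Aldoa, so reads shared with these copies could be dropped or moved, and the absolute levels of those genes are uncertain.

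**Figure D1:**
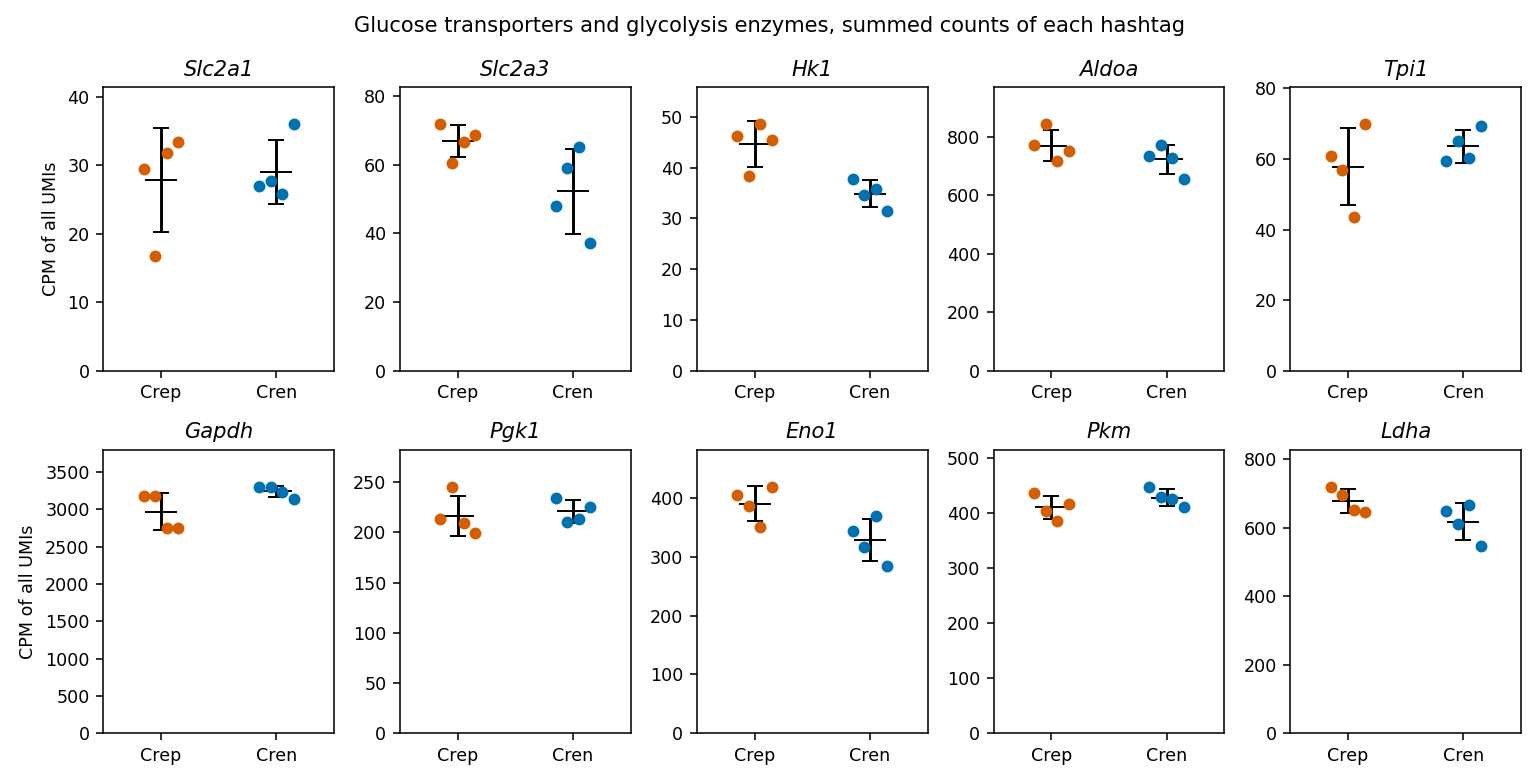
CPM of each of the 10 genes (vertical axes, each from 0) in the 4 Crep hashtags (orange, left) and the 4 Cren hashtags (blue, right), with mean and SD in black. The 4 Crep points of Hk1 lie above every Cren point, Eno1 and Slc2a3 have 3 such points, and the other genes overlap more.

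Shares of cells with a UMI were compared at equal depth. Each cell was thinned to 2000 UMIs, which left 3171 Crep cells and 3468 Cren cells and dropped 986 and 937 shallower ones. Eno1 was then seen in 52.9% ± 2.70 of cells in Crep and 44.3% ± 4.32 of cells in Cren (n = 4 hashtags each, SD), and Ldha in 71.6% ± 2.35 of cells in Crep and 65.8% ± 2.2 in Cren. For Ldha the Crep hashtags ranged from 69.5% to 74.0% and the Cren hashtags from 63.7% to 68.2%, with no overlap. Slc2a3 was seen in 12.0% ± 0.697 of cells in Crep and 9.10% ± 1.87 in Cren, from 11.3% to 12.8% in Crep and from 7.15% to 11.1% in Cren, and Hk1 in 7.95% ± 0.215 of cells in Crep and 7.0% ± 0.817 in Cren. The shares of Slc2a3 and Ldha were apart between the groups and those of the other 8 genes overlapped, where 6.08% of the 8848 genes with a UMI in at least 1% of thinned cells were apart. Gapdh was seen in 98.9% ± 0.561 of cells in Crep and 99.3% ± 0.638 in Cren, and Slc2a1 in 4.71% ± 1.08 of cells in Crep and 5.16% ± 0.501 in Cren. Before thinning the shares of Eno1 were 60.97% in Crep and 55.5% in Cren and those of Ldha 77.4% in Crep and 73.6% in Cren. The groups then overlapped for Ldha, with 74.0% in Crep 4 and 75.9% in Cren 1. They also overlapped for Slc2a3, with 15.3% in Crep 4 and 16.3% in Cren 3. All 20 mean shares differed by at least their SD between the thinned and unthinned cells. No cell type that should lack these genes was present, since glycolysis runs in every cell, so the share that free RNA gives was not measured. The shares were not tested.

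Other genes of glucose metabolism were examined over all cells. Of 63 further genes of glucose metabolism (other glycolysis and pentose phosphate enzymes, lactate and pyruvate carriers and their partners), 50 were in the table and 36 were tested. None passed, 4 had an unadjusted p under 0.05, 21 were positive and 15 negative, and the median log2 fold change was 0.02. The 3 with the smallest p were Bpgm, Got1 and Bsg. Bpgm, the bisphosphoglycerate mutase, averaged 7.06 ± 1.37 CPM in Crep and 10.7 ± 1.36 CPM in Cren (n = 4 each, SD; log2 fold change -0.59, SE 0.21, edgeR adjusted p = 0.283). Got1, the cytosolic aspartate aminotransferase of the malate-aspartate shuttle, averaged 39.7 ± 4.19 CPM in Crep and 50.4 ± 7.80 CPM in Cren (log2 fold change -0.33, SE 0.13, edgeR adjusted p = 0.313). Bsg, which encodes basigin, the chaperone of the lactate carriers, averaged 155 ± 13.8 CPM in Crep and 135 ± 11.9 CPM in Cren (log2 fold change 0.20, SE 0.09, edgeR adjusted p = 0.428). Hk2, with 50 UMIs in all cells, and Ldhb, with 59, were too low to test.

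Of 17 regulators of the pathway 16 were tested, none passed, and 5 were positive and 11 negative. Akt2, a kinase of the insulin and growth factor pathway, averaged 45.1 ± 2.63 CPM in Crep and 37.3 ± 5.44 CPM in Cren (log2 fold change 0.27, SE 0.11, edgeR adjusted p = 0.370). Egln1, the oxygen-sensing hydroxylase that marks HIF-1 for degradation, averaged 36.0 ± 2.51 CPM in Crep and 30.1 ± 4.35 CPM in Cren (log2 fold change 0.27, SE 0.12, edgeR adjusted p = 0.445). Myc averaged 50.8 ± 2.81 CPM in Crep and 62.4 ± 16.2 CPM in Cren (log2 fold change -0.29, SE 0.16, edgeR adjusted p = 0.557). Of 17 hypoxia response genes 10 were tested, none passed, and 3 were positive and 7 negative. Plin2, which coats lipid droplets, averaged 13.3 ± 2.27 CPM in Crep and 8.87 ± 1.96 CPM in Cren (log2 fold change 0.57, SE 0.20, edgeR adjusted p = 0.279). Mif, a cytokine gene, averaged 344 ± 27.7 CPM in Crep and 398 ± 56.6 CPM in Cren (log2 fold change -0.20, SE 0.10, edgeR adjusted p = 0.464), and Mxi1, an antagonist of MYC, 40.2 ± 4.17 CPM in Crep and 46.3 ± 5.69 CPM in Cren (log2 fold change -0.20, SE 0.11, edgeR adjusted p = 0.548). Of 17 tested genes of oxidative phosphorylation, 7 were positive and 10 negative, with a median log2 fold change of -0.02. In this list 1 gene passed, where 0.611% of all genes tested passed. It was Ndufa4, a subunit gene of the respiratory chain, which fell to 265 ± 18.6 CPM in Crep, against 353 ± 19.3 CPM in Cren (n = 4 each, SD; log2 fold change -0.41, SE 0.08, edgeR adjusted p = 0.0303). It is named because it was the 1 call of its list, after its value was seen. None of the 9 tested genes of dividing cells passed.

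The authors' annotation holds 12 fine clusters, and the groups fill them unevenly, so the genes were compared within clusters too. In 6 clusters (0, 1, 2, 3, 5 and 6) both groups had 3 or more hashtags with 20 or more cells, and there no test of any of the 10 genes passed. In the same order 0.98%, 0.173%, 0.28%, 0%, 1.19% and 0.0269% of all genes tested passed. In cluster 3, where edgeR passed no gene, 261 genes had an unadjusted p under 0.05. The fitted log2 fold changes of Eno1 and Ldha were positive in 6 of 6 clusters, at 0.06 to 0.22 and 0.07 to 0.22. Those of Gapdh and Tpi1 were negative in 6 of 6 clusters, at -0.24 to -0.01 and -0.86 to -0.07, although in cluster 5 the mean CPM of both was higher in Crep (Gapdh 3129 CPM in Crep and 3085 CPM in Cren, Tpi1 58.2 CPM in Crep and 50.3 CPM in Cren). Aldoa was positive in 5 of 6 and Hk1 in 4 of 5, Pkm was negative in 5 of 6, and Slc2a3 and Pgk1 were split evenly. Slc2a1 passed the filter on low counts in 3 clusters, positive in 1 and negative in 2, the lowest being -0.82 in cluster 6 (unadjusted p = 0.0198, edgeR adjusted p = 0.841). Clusters share the hashtags, so these counts are not independent of each other or of the comparison over all cells.

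Cluster 0, the one with the most cells (1321), held the smallest adjusted p of the 10 genes. There Gapdh averaged 3247 ± 179 CPM in Crep and 3877 ± 234 CPM in Cren (n = 4 each, SD), with all 4 Crep hashtags below every Cren hashtag (log2 fold change -0.24, SE 0.09, edgeR adjusted p = 0.281). Ldha in the same cluster averaged 712 ± 32.5 CPM in Crep and 642 ± 7.41 CPM in Cren, with all Crep hashtags above every Cren hashtag (log2 fold change 0.16, SE 0.10, edgeR adjusted p = 0.690). Groups were likewise apart, in 1 direction or the other, for 5.18% of the genes tested in cluster 0, against 2 of the 10 genes. In cluster 1 (1186 cells) 3.66% of genes tested were apart, among them Tpi1 and Pkm, each with all Crep hashtags below every Cren hashtag. There Tpi1 averaged 52.8 ± 10.1 CPM in Crep and 69.4 ± 1.36 CPM in Cren (n = 4 each, SD; log2 fold change -0.41, edgeR adjusted p = 0.795), and Pkm 360.5 ± 31.2 CPM in Crep and 408 ± 16.4 CPM in Cren (log2 fold change -0.19, edgeR adjusted p = 0.821). In clusters 2, 3, 5 and 6 none of the 10 genes was apart, where 3.94%, 3.50%, 9.79% and 3.34% of the genes tested were. In cluster 1 Gapdh averaged 2724 ± 217 CPM in Crep and 2871 ± 78.0 CPM in Cren. The Crep minus Cren effect in cluster 1 minus that in cluster 0 was tested as an interaction term, each hashtag being a block, and 0 of the 10 genes passed, where 0.134% of 6703 genes passed. For Gapdh this difference was 0.16 (log2, SE 0.07, edgeR adjusted p = 0.760).

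For the 3 genes with the largest positive fold changes over all cells, the medians within clusters were compared with them. The median log2 fold change over tested clusters was 0.14 for Eno1, 0.17 for Hk1 and 0.04 for Slc2a3, against 0.25, 0.35 and 0.35 over all cells. These genes were picked by their values over all cells, and the others did not shrink alike. The medians of Tpi1, Pkm and Slc2a1 were -0.23, -0.19 and -0.19, against -0.13, -0.06 and -0.06 over all cells. Those of Aldoa, Ldha, Gapdh and Pgk1 were 0.09, 0.13, -0.12 and -0.02, against 0.10, 0.14, -0.12 and -0.02. The within-cluster median of Slc2a3 was unstable, from -0.02 without the hashtag Cren 4 to 0.20 without Crep 1, and that of Hk1 was 0.32 without Crep 2. Cluster 4, with 748 Crep and 219 Cren cells, and cluster 7, with 570 Crep and 22 Cren cells, had pooled Eno1 levels of 455 and 444 CPM, against 359 CPM over all cells. Without coarse cluster 4 of the authors, the log2 fold change of Eno1 was 0.18, that of Hk1 0.30 and that of Slc2a3 0.28. The part of cluster sizes in the differences over all cells was not tested further.

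**Figure D2:**
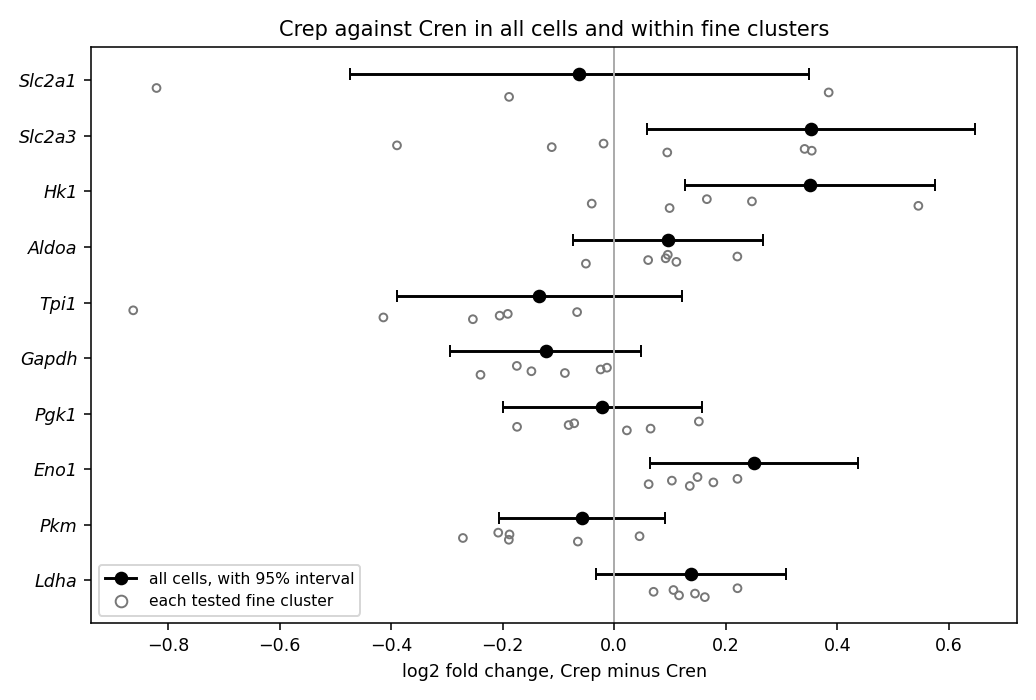
Log2 fold change, Crep minus Cren, of each gene (horizontal axis) over all cells (black point with 95% interval from edgeR) and in each tested fine cluster (open circles). Eno1 and Ldha lie right of 0 in all 6 clusters and Gapdh and Tpi1 left of 0 in all 6, with none past the threshold.

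Across clusters the summed level of the 10 genes was within a narrow range in 9 of 12 clusters and stood apart in clusters 9 and 11. Single genes varied more among those 9, up to a ratio of 2.38 between the highest and lowest mean for Hk1. Fine clusters were made from the same cells and genes, so levels between clusters are described and not tested. Among the 9 clusters with at least 3 hashtags of at least 20 cells, the summed level ran in the order 0, 7, 3, 8, 5, 2, 6, 4 and 1. It was 6302 ± 421 CPM in cluster 0 and 5141 ± 208 CPM in cluster 1 (SD over hashtags), a ratio of 1.23. All 8 pairs of neighbours in this order overlapped in their hashtag ranges, and the ends did not. Eno1 ran from 454 ± 30.8 CPM in cluster 4 to 291 ± 31.9 CPM in cluster 2, and its ends were apart. Ldha ran from 728 ± 61.8 CPM in cluster 3 to 548 ± 28.1 CPM in cluster 8, Gapdh from 3562 ± 388 CPM in cluster 0 to 2560.3 ± 219 CPM in cluster 4, and Slc2a3 from 80.6 ± 13.3 CPM in cluster 3 to 46.0 ± 11.7 CPM in cluster 1, with the ends apart in each. Cluster 4, the highest for Eno1, was thus the lowest for Gapdh. For Slc2a1, Hk1, Aldoa, Tpi1, Pgk1 and Pkm the clusters with the highest and lowest mean overlapped. Other pairs of clusters could still be apart for these genes. Tpi1 was at 75.1 to 89.6 CPM over the hashtags of cluster 7 and 40.7 to 71.1 CPM in cluster 1. Aldoa was at 743 to 993 CPM in cluster 0 and 621 to 735 CPM in cluster 4. Cluster 10, of which 109 of 112 cells came from the third Cren hashtag, has no spread over hashtags.

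Cluster 11, the smallest (73 cells, 19 Crep and 54 Cren, at least 1 in each hashtag), had the highest summed level of the 10 genes. It reached 10679 CPM (exact 95% Poisson interval 10324 to 11043, counting error only), against 5643 CPM in the other cells, a ratio of 1.89, and was higher in 8 of 8 hashtags. The 7 enzymes below hexokinase summed to 1.92 times the level in other cells. Tpi1 was at 216 CPM in cluster 11 and 58.2 CPM in other cells (3.70 times, 69 UMIs, higher in 7 of 8 hashtags). Ldha was at 1601 CPM in cluster 11 and 638 CPM in other cells (2.51 times, higher in 8 of 8), and Pkm at 922 CPM in cluster 11 and 414 CPM in other cells (2.23 times, higher in 8 of 8). Pgk1, Gapdh and Aldoa were at 1.88, 1.87 and 1.68 times the level in other cells. Eno1 was at 413 CPM in cluster 11 (interval 345 to 489) and 359 CPM in other cells, and higher in 5 of 8 hashtags, so it did not stand apart there. Slc2a1, Slc2a3 and Hk1 summed to 87.5 CPM in cluster 11 (interval 58.2 to 127, 28 UMIs) and 127 CPM in other cells, higher in 4 of 8 hashtags. The summed level of the entry genes thus did not stand above the other cells where that of the lower enzymes did.

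The leading genes of cluster 11 by fold over other cells, among genes with at least 30 UMIs there (a rule added after the data were seen), were Ccl1, Penk, Xcl1, Tnfrsf9, Rgs16, Marcksl1, Tnfrsf4, Irf8, Lta and Ccl3. Several of these encode cytokines and receptors of recently activated T cells: Xcl1, a chemokine that attracts dendritic cells, was at 3339 CPM in cluster 11 and 45.4 CPM in other cells, and Tnfrsf9, the costimulatory receptor 4-1BB, at 969 CPM in cluster 11 and 33.6 CPM in other cells. Both had UMIs in all 8 hashtags, whereas Ccl1, Penk and Tnfrsf4 had UMIs in 4, 3 and 3. Myc was at 209 CPM in cluster 11, against 27.4 to 85.7 CPM in the other 11 clusters, and Mif at 1344 CPM, against 144 to 424 CPM. Mif thus gave most of the 1929 CPM to which the 13 hypoxia response genes in the table summed in cluster 11. Hif1a was highest in cluster 9, at 294 CPM, and was at 209 CPM in cluster 11. The 17 regulators likewise summed to 985 CPM in cluster 9 and 819 CPM in cluster 11. Txnip, which encodes an inhibitor of glucose uptake, was lowest in cluster 11, at 87.5 CPM against 266 to 549.7 CPM in the others. Of the wider list, Pgam1, the phosphoglycerate mutase between PGK1 and enolase, was at 338 CPM in cluster 11 and 63.4 to 156 CPM elsewhere, and Tkt, the transketolase of the pentose phosphate pathway, at 363 CPM in cluster 11 and 97.9 to 220.4 CPM elsewhere. Gpi1, the isomerase after hexokinase, was at 385 CPM in cluster 11, below the 428 to 547 CPM of every other cluster but cluster 9. A cell of cluster 11 had a median of 4081 UMIs, 0 of its cells lacked agreeing hashtag calls, and 1 had a Mki67 UMI. No doublet caller was run, doublets within a hashtag leave no trace in the calls, and their part in these levels was not tested.

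Cluster 9 (119 cells, 63 Crep and 56 Cren) had the opposite pattern. Its summed level of the 10 genes was 2742 CPM (interval 2501 to 2999.9), against 5726 CPM in the other cells, a ratio of 0.479, and was lower in 8 of 8 hashtags. All 7 enzymes below hexokinase were lower, from 0.339 times the level in other cells for Pgk1 to 0.619 times for Ldha. Slc2a3 was at 196 CPM in cluster 9 and 58.4 CPM in other cells (3.35 times, 34 UMIs, higher in 7 of 8 hashtags), and Hk1 and Slc2a1 were at 1.90 and 1.87 times on 13 and 9 UMIs. These cells had a median of 1007 UMIs, a median mitochondrial share of 2.04% and a median ribosomal share of 4.92%, values that set them apart from all other clusters. Their part in the levels was not tested.

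Of the 8 genes with a mean of at least 50 CPM over clusters, 6 were highest of all clusters in cluster 11, against 23.6% of the 2941 genes at that level, and 7 were lowest in cluster 9, against 34.7%. Slc2a3 was the 1 of the 8 highest in cluster 9, against 34% of the 2941 genes. It was also the 1 lowest in cluster 11, against 26.9%. Slc2a1 and Hk1 lay below that level. Of the 14 genes of the wider list at that level, 7 were highest in cluster 11 and 11 lowest in cluster 9. The highest in cluster 11 were Pgam1, Tkt, Mdh2, Mpc1, Bsg, Pdhb and Mdh1.

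**Figure D3:**
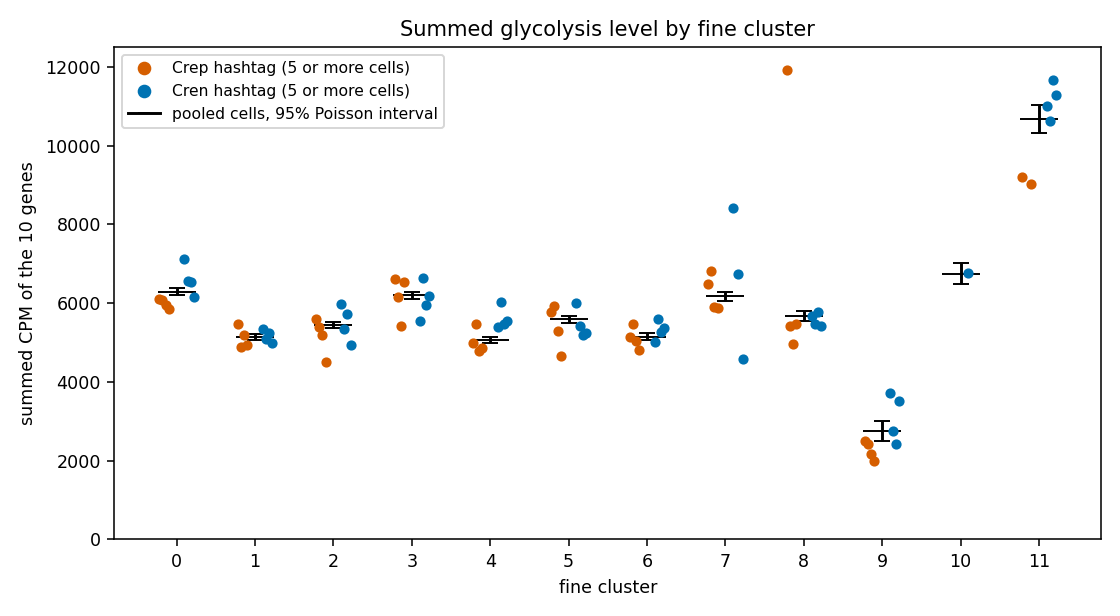
Summed CPM of the 10 genes (vertical axis) in each fine cluster (horizontal axis). Black marks are pooled cells with 95% Poisson intervals, and points are hashtags with at least 5 cells there (Crep orange, left, and Cren blue, right), whose scatter widens where cells are few. Cluster 11 stands at 10679 CPM and cluster 9 at 2742 CPM.

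**Figure D4:**
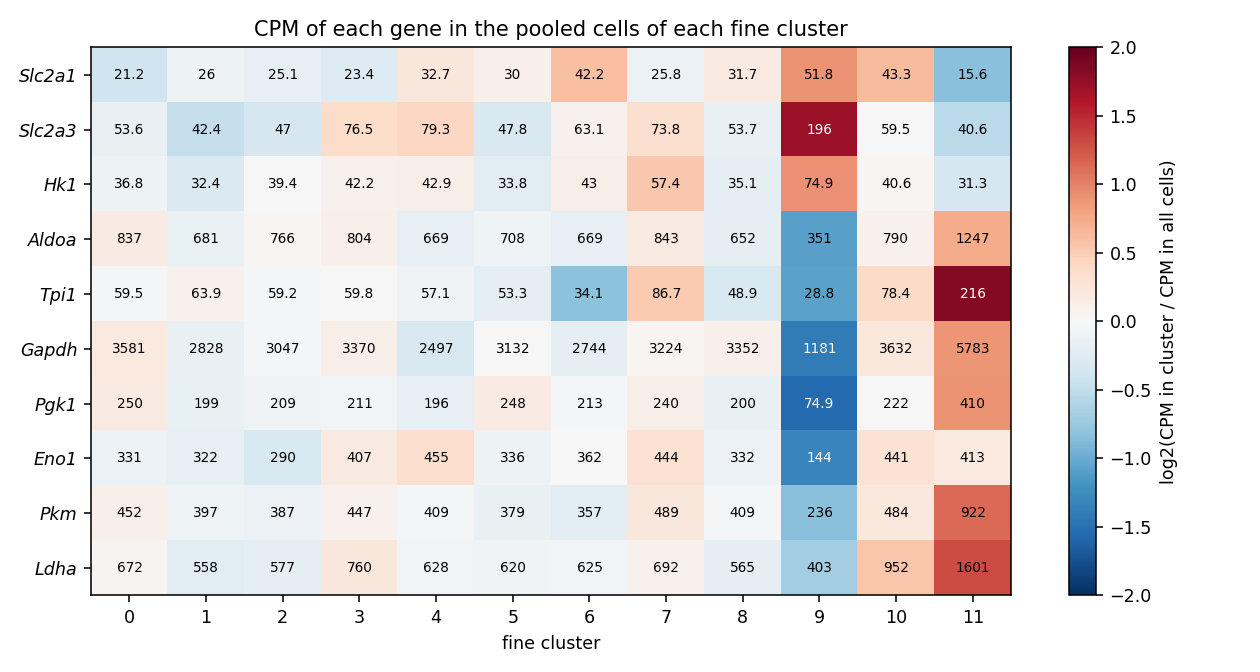
CPM of each gene (rows) in the pooled cells of each fine cluster (columns), coloured by the log2 ratio to its CPM in all cells. Cluster 11 is raised for Tpi1, Ldha and Pkm, while cluster 9 is raised for Slc2a1, Slc2a3 and Hk1 and low for the enzymes.

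How the genes varied together followed the same split. Over the 12 clusters, with log2(CPM + 1) of pooled cells, all 21 pairs among the 7 lower enzymes had a positive Pearson correlation (median 0.86), and all 21 pairs of Slc2a1, Slc2a3 or Hk1 with one of these enzymes had a negative one (median -0.66). The clusters differ in depth and share the 8 hashtags, and 2 clusters carried much of this. Without clusters 9 and 11 (an alternative added after the data were seen), 20 of the 21 enzyme pairs were positive (median 0.55), and the pairs of transporters or Hk1 with enzymes were positive in 13 and negative in 8 (median 0.22). The negative relation of Slc2a3 and Hk1 with most lower enzymes thus rested on clusters 9 and 11. Slc2a1 stayed negative without them with Aldoa (-0.48), Tpi1 (-0.32), Pgk1 (-0.25), Gapdh (-0.22) and Pkm (-0.21). It was positive with Eno1 (0.34) and Ldha (0.29). Among 2933 genes, the 10 most like the summed level over 12 clusters were Eif1ax, Atp5g3, P4hb, Ndufab1, Phgdh, Tuba1b, Naa10, Snrpg, Psme2 and Ndufb6, with correlations of 0.97 to 0.99, and of 0.63 to 0.89 without clusters 9 and 11. A correlation above 0.9 was common, in 4.81% of genes. The 5 least like were Dnm2, Stim1, Creb1, Esyt2 and Crebrf, from -0.97 to -0.96.

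Glycolysis often accompanies cell division, so the 356 cells with a Mki67 UMI (4.16% of cells, 33 to 61 per hashtag) were compared with the cells without one, with the hashtag as a block. Mki67 encodes a nuclear protein of cycling cells. None of the 10 genes passed, where 0.349% of 9743 genes passed in edgeR (5 higher and 29 lower). Mki67, which sets the split and so had to differ, was among the 5 higher. Of the 29 lower genes, 22 were ribosomal protein genes. Gapdh averaged 3193 ± 410.3 CPM in cells with a Mki67 UMI and 3099 ± 217 CPM in cells without (SD, n = 8 hashtags), and Aldoa 736 ± 136 CPM in cells with a Mki67 UMI and 746 ± 50.5 CPM in cells without. Of the 8 other genes of dividing cells that were tested, none passed. Stmn1, a microtubule regulator, came nearest, at 29.5 CPM in cells with a Mki67 UMI and 14.0 CPM in cells without (log2 fold change 1.09, edgeR adjusted p = 0.0570). All 8 were on the positive side, with log2 fold changes of 0.16 to 1.09. Cells with a Mki67 UMI were deeper, with a median of 3343 UMIs, against 2743 in cells without. With TMM scaling the median log2 fold change of all genes was -0.06 in this comparison, and with cells thinned to 2000 UMIs it was -0.26, where Gapdh (-0.36) and Aldoa (-0.53) passed as lower. With plain library totals in place of TMM the thinned median was 0.04, and 0 of the 10 genes and 4 of all 8770 genes passed.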

How the data were processed

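The authors deposited raw UMI counts per gene and cell and a cell annotation with hashtag, condition, clusters at resolutions of 0.6 and 0.9, and mitochondrial and ribosomal percentages, which are the authors' percent values. Per the submitters' processing notes, the genome build was mm10 and the tools named are Seurat 4.3.0, Cell Ranger 7.0.0 and bcl2fastq 2.20.0.422; their roles are not given in the sources used here. As the values show, no deposited cell was under 500 genes or over 3% mitochondrial UMIs. No cell was removed here, and no doublet caller was run; 115 cells (1.34%) lacked agreement of both hashtag classifiers.

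UMI counts of each hashtag were added up and tested with edgeR 4.0.16 (filterByExpr, TMM, robust), R 4.3.3. CPM in the text uses plain totals of all genes; fold changes come from the fit. Alternatives used DESeq2 1.42.0 and limma 3.58.1. Named genes were the 10 genes, the 3 of smallest p in each pathway list when none passed, and those most and least like the summed level. Ndufa4, Hk2, Ldhb, the leading genes of cluster 11 and the regulators and metabolic genes given by cluster were named after their values were seen. The genes and lists were chosen with earlier results of these data known. The hashtag numbers, shared between groups, were not taken to pair them.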

Additional observations from a re-analysis of the deposited data

How the results depend on the processing

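Over all cells 0 of the 10 genes and 0 of the wider list passed under each of 17 alternatives (other tools, scalings, filters and cell sets, each hashtag left out, and the replicate block), and within clusters and for the difference between clusters 0 of the 10 passed under each alternative run. The log2 fold changes of the 10 genes kept their sign in 166 of 170 recomputed values; leaving out a hashtag gave -0.16 to 0.12 for Slc2a1 and -0.10 to 0.019 for Pgk1. Within clusters the median of Slc2a3 changed sign with DESeq2 (-0.0094) and without Cren 1 or Cren 4 (-0.016 and -0.021), and was 0.20 with at least 50 cells per hashtag. The number of all genes passing moved more, from 59 to 143 with DESeq2, 20 with limma-voom, 32 without coarse cluster 4 and 14 to 121 when a hashtag was left out (14 without Crep 2 or Cren 1, 121 without Cren 3, and moved by over 1.5 times without each hashtag but Crep 4), so the background is uncertain by more than 1.5 times. With the hashtag number as a replicate block it was 118; same-numbered hashtags correlated at -0.04, 0.14, 0.18 and 0.12 in their deviations, and for 3 of the 4 numbers (2, 3 and 4) the best match was the same number, so the numbers were not taken as pairs because number 1 did not follow the others. For cells with a Mki67 UMI the count of 34 genes was 14 with Top2a in place of Mki67, 3 with DESeq2, 18 with RLE size factors, 19 with plain totals, 213 after thinning, 4 after thinning with plain totals, 9 in Crep alone, 10 in Cren alone, 1 with no replicate block and 14 to 51 when a hashtag was left out. The 10 genes gave 0 calls there except 2 after thinning with TMM. Of the 10 log2 fold changes, 0 were positive with TMM, 5 with RLE and 4 with plain totals. After thinning, 0 were positive with TMM, 3 with RLE and 2 with plain totals. Gapdh and Aldoa alone were followed through every alternative. Gapdh turned positive with DESeq2 (0.048), RLE (0.047), plain totals (0.038), Cren alone (0.054) and no replicate block (0.015). Aldoa did so with Top2a (0.022). Apart from the scaling values given above, the cause was not tested. The ratio of 1.23 between clusters 0 and 1, the highest and lowest by mean over hashtags, stayed at 1.22 with pooled cells and 1.22 without cells with a Mki67 UMI. With pooled cells, cluster 4 (5067 CPM) lay below cluster 1 (5150 CPM). Slc2a1, with 716 UMIs, limits what could be seen: its 95% interval spans -0.47 to 0.35.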
